A study of Homo sapiens with 4 samples.

Results

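The genes described here are the host genes of small nucleolar RNAs (snoRNAs) that make mostly noncoding transcripts, together with TPT1. They were chosen by gene symbol, as every count row named SNHG with a number after it (28 rows) plus GAS5, ZFAS1, EPB41L4A-AS1, DANCR and TPT1. The rule gave 33 of the 60623 genes in the count files. Of these, 32 are annotated as lncRNA genes and 1, TPT1, is protein-coding. The cells were BICR10, a human cell line labelled as head and neck cancer, infected with lentivirus for a control hairpin (shControl, 2 libraries) or for a hairpin against YEATS2 (shYEATS2, 2 libraries), and selected with puromycin in both groups. YEATS2 encodes a reader of acyl marks on histones. Neither the labels nor the methods say which of the listed YEATS2 hairpins a library carried. The study describes its replicates in general as biological, while the labels of these libraries give only a number, so the p-values measure the spread between these libraries, which may be technical.

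A snoRNA is cut from an intron of a longer transcript, its host. Box C/D snoRNAs guide ribose methylation of ribosomal RNA and box H/ACA snoRNAs guide its pseudouridylation, while the scaRNAs, their relatives in Cajal bodies, act on the RNAs of the spliceosome. The spliced exons of an SNHG transcript have no long reading frame and are often degraded in the cytoplasm by nonsense-mediated decay (NMD), which acts on RNAs that ribosomes read only in part. Many host transcripts start with a terminal oligopyrimidine (TOP) motif, a C at the cap followed by a run of pyrimidines, as do the mRNAs of ribosomal proteins, whose translation mTORC1 controls through LARP1. TPT1, the mRNA of the tumour protein TCTP, is an abundant coding TOP transcript and hosts a snoRNA itself.

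The totals of counts on genes were 47297970 and 39824898 in shControl and 24072396 and 11334133 in shYEATS2, so depth cannot be told apart from the knockdown. The YEATS2 mRNA itself had 66.1 and 66.7 CPM (counts scaled to a common library size after TMM normalization) in shControl and 29.2 and 29.1 CPM in shYEATS2, a log2 fold change (shYEATS2 over shControl) of −1.19 (standard error, SE, 0.08, adjusted p = 3.6e-21). Markers of the labelled cell type were mixed. Of 9 epithelial markers, KRT19 had no count, TP63 was at 0.0331 CPM and EPCAM at 1.01 CPM in shControl, while KRT8 was at 266 CPM. The summed level of the 9 was 392 to 398 CPM in shControl and 191 to 206 CPM in shYEATS2. All 6 fibroblast markers were above 1 CPM, and their summed level was 7195 to 7286 CPM in shControl and 2212 to 2349 CPM in shYEATS2. The sum of 4 endothelial markers was 35.5 to 36.4 CPM in shControl and 18.6 to 19.6 CPM in shYEATS2, and the sum of 4 leukocyte markers, with CD3E and CD68 at 0, was under 1 CPM in every library. The part of these shifts in the values below was not tested.

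Of the 27 tested noncoding host genes, 16 rose upon YEATS2 knockdown, whereas the coding TOP transcript TPT1 fell. Of the 33 genes, 28 had enough counts to be tested. Among these, 16 were called higher in shYEATS2 (57.1%, against 22.6% of all 17058 genes tested), 3 were called lower (10.7%, against 23.6%) and 9 were not called. A call here is an adjusted p below 0.05 in the quasi-likelihood test of edgeR, which gave all adjusted p-values below unless another tool is named. The 28 genes had a median log2 fold change of 0.38, against −0.01 over all genes tested. The rises were moderate, from 0.27 to 0.95 on the log2 scale, and 6 of the 16 genes rose by at least 1.5-fold. All 16 rises were in lncRNA genes, and lncRNA genes other than these were higher in 21.2% and lower in 7.76% of 2772 tests, with a median of 0.21. Among the 149 of those lncRNA genes that had a mean of at least 10 CPM, closer in level to the host genes, 42.3% were higher and 20.8% were lower, and the median was 0.16. In bulk RNA of this kind, fewer cells of a type and less RNA per cell cannot be told apart. Both shYEATS2 libraries lay above both shControl libraries for 19 of the 28 genes (35.3% of all genes tested) and below both for 3 (36.3% of all). With DESeq2, 15 were higher (16.5% of all genes) and 2 were lower (17.3% of all). Scaled by library totals alone, 20 were higher (31.9% of all) and 2 were lower (15.0% of all). Without shControl replicate 1 or 2 or shYEATS2 replicate 1 or 2, in this order, 17, 13, 14 and 16 were higher (15.2%, 16.3%, 17.1% and 19.9% of all) and 2, 4, 2 and 3 were lower (17.8%, 18.3%, 21.5% and 21.9% of all). Summed over the 32 noncoding genes, the level was 1191 and 1137 CPM in shControl and 1592 and 1566 CPM in shYEATS2.

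**Figure D1:**
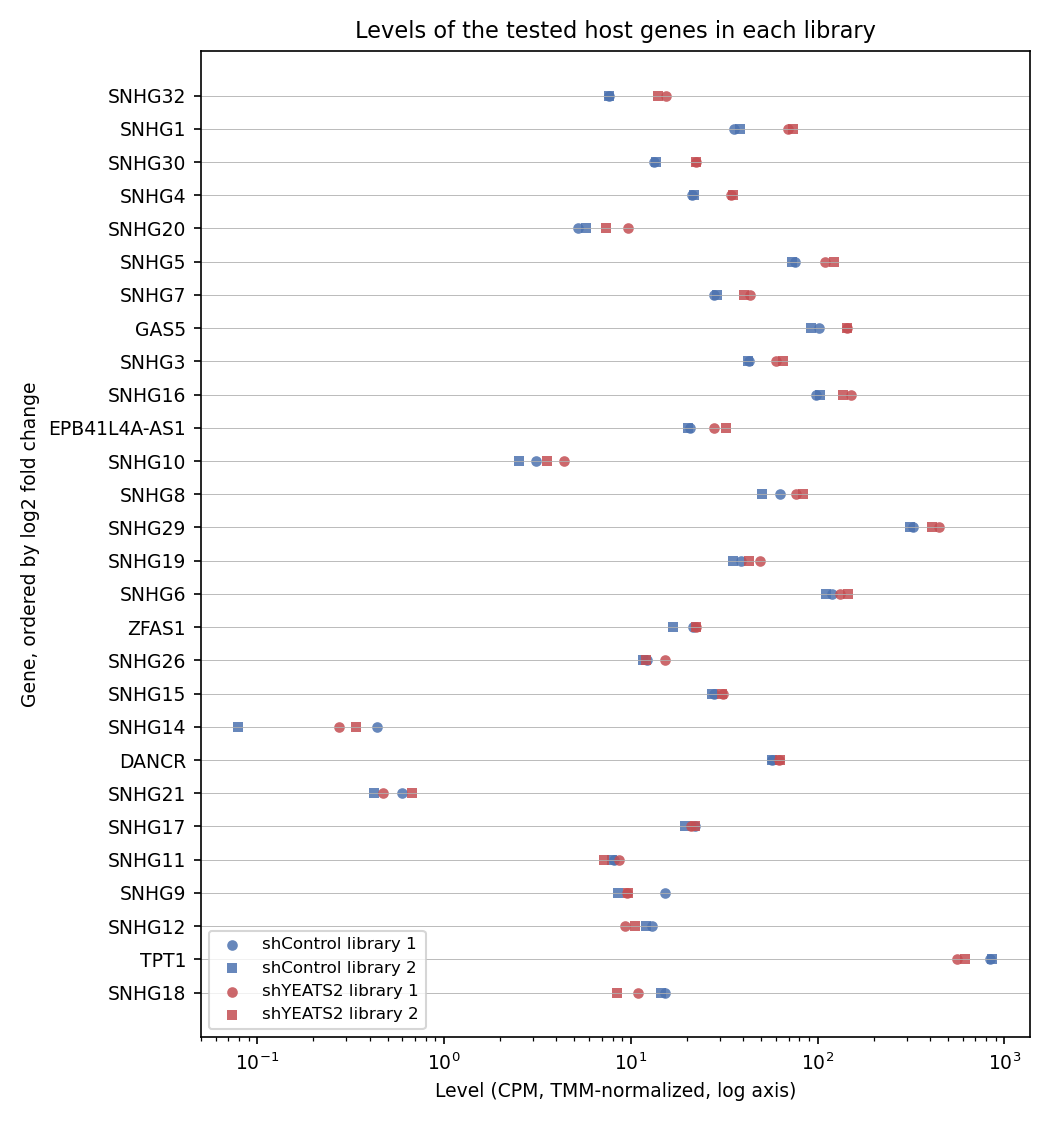
Level of each of the 28 tested genes in each of the 4 libraries, in TMM-normalized CPM on a log axis, ordered from the largest rise to the largest fall. The red shYEATS2 points lie to the right of both blue shControl points for 19 genes and to the left for SNHG12, TPT1 and SNHG18.

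Some of these genes share a feature of the start site with ribosomal protein genes. Sequences around the start were taken from the RefSeq table (GRCh38.p14), which matched 29 of the 33 genes. The motif searched was a C followed by at least 4 pyrimidines (C or T) on the strand of the gene. Of the 25 matched genes that were tested, 8 (32.0%) carried it with the C on the annotated start base, against 4.04% of all 27305 promoters in the table and 63.2% of 68 matched ribosomal protein genes. With the C anywhere within 10 bases of the start, 17 of the 25 (68.0%) carried it, against 33.3% of all promoters. RefSeq and GENCODE place the start of most of these genes at different bases, so the lack of a match says only that these letters are not in this window. The motif was on the start base in 4 of 15 matched genes that rose and in 4 of 10 tested genes that did not, and within 10 bases of the start in 8 of the 15 and in 9 of the 10. The 4 that carried it on the start base and did not rise were ZFAS1, SNHG12, SNHG18 and TPT1, and the last 3 were called lower. A relation of the motif to the change was not tested. The windows below run from 10 bases before the start to 20 bases from it on, with the pyrimidine run in capitals, and are shown for 3 genes that rose, for ZFAS1, which was not called, for 2 genes that fell, and for SNHG1, which rose and has no match in this window.
SNHG32 (chr6:31834906-31834935, plus strand): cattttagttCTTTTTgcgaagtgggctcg
SNHG5 (chr6:85678714-85678743, minus strand): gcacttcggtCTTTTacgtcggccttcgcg
SNHG19 (chr16:2155339-2155368, minus strand): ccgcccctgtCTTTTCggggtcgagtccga
ZFAS1 (chr20:49278632-49278661, plus strand): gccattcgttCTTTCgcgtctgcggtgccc
SNHG12 (chr1:28581854-28581883, minus strand): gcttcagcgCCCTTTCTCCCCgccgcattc
TPT1 (chr13:45341164-45341193, minus strand): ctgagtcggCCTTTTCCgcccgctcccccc
SNHG1 (chr11:62855866-62855895, minus strand): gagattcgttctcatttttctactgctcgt

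Among the hosts of box C/D snoRNAs, SNHG1 and SNHG32 rose most. SNHG1 (ENSG00000255717, chromosome 11, 62851978 to 62855953, minus strand) holds SNORD22, SNORD25 to SNORD28 and SNORD30. Its level was 35.7 and 38.7 CPM in the shControl libraries and 69.9 and 74.1 CPM in the shYEATS2 libraries. The shYEATS2 libraries were both well above the controls, and SNHG1 rose by 0.95 on the log2 scale (SE 0.07, adjusted p = 9.3e-18). SNHG32 (ENSG00000204387), on chromosome 6 from 31834608 to 31839766, hosts SNORD48 and SNORD52. It went from 7.63 and 7.70 CPM to 15.4 and 14.0 CPM, a log2 fold change of 0.95 (SE 0.12, adjusted p = 5.5e-10). SNHG30, the host of SNORD7, had 13.3 and 13.6 CPM in shControl and 22.3 CPM in each shYEATS2 library, a log2 fold change of 0.73 (SE 0.10, adjusted p = 8.9e-09). For these 3 genes, the gap between the groups was several times the range within either group.

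SNHG5, GAS5 and SNHG16 were abundant and rose by about the same amount. SNHG5 (ENSG00000203875), the host of SNORD50B, had 76.2 and 73.4 CPM in shControl and 109.6 and 123 CPM in shYEATS2, with a log2 fold change of 0.63 (SE 0.07, adjusted p = 2.1e-12). GAS5 (ENSG00000234741, chromosome 1 from 173858559 to 173868882, minus strand) was named for its accumulation in growth-arrested cells and is known to host box C/D snoRNAs. Among the genes of the count files, GENCODE release 44 places no snoRNA gene within it on its strand. GAS5 had 102 and 92.0 CPM in shControl and 144 and 143 CPM in shYEATS2. The log2 fold change of GAS5 was 0.56 (SE 0.06, adjusted p = 2.3e-11), and it stayed between 0.48 and 0.70 under every alternative tried. SNHG16, which hosts the SNORD1 group, had 97.8 and 103 CPM in shControl and 152 and 137 CPM in shYEATS2, a log2 fold change of 0.53 (SE 0.06, adjusted p = 2.0e-10).

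Smaller rises were seen in SNHG29, SNHG19 and SNHG6, which also host box C/D snoRNAs. SNHG29 (ENSG00000175061) was the most abundant noncoding host, with 323 and 313 CPM in shControl and 449 and 409.6 CPM in shYEATS2, a log2 fold change of 0.43 (SE 0.06, adjusted p = 4.7e-09). SNHG19 had 38.8 and 35.5 CPM in shControl and 49.4 and 43.2 CPM in shYEATS2, a log2 fold change of 0.33 (SE 0.08, adjusted p = 4.3e-04). SNHG6 had 119 and 111 CPM in shControl and 132 and 145 CPM in shYEATS2, a log2 fold change of 0.27 (SE 0.06, adjusted p = 4.2e-04). The last 2 calls rested on shControl replicate 2, since without it SNHG19 was at 0.26 (adjusted p = 0.0687) and SNHG6 at 0.21 (adjusted p = 0.0702). Not every box C/D host was called. ZFAS1, the antisense neighbour of ZNFX1 and host of the SNORD12 group, had 21.6 and 16.8 CPM in shControl and 22.4 and 22.3 CPM in shYEATS2. Its log2 fold change was 0.22, with a 95% interval from 0.01 to 0.42 and an adjusted p of 0.0802, and without shControl replicate 1 it was 0.41 (adjusted p = 0.0146). SNHG26, which holds SNORD93, had 12.3 and 11.6 CPM in shControl and 15.2 and 12.1 CPM in shYEATS2, so the groups overlapped. Its log2 fold change was 0.22 (95% interval −0.01 to 0.45, adjusted p = 0.107), and 0.34 without shYEATS2 replicate 2 (adjusted p = 0.0112).

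The hosts of box H/ACA snoRNAs were divided. SNHG4, SNHG7, SNHG3, EPB41L4A-AS1 and SNHG8 rose. SNHG4, which holds SNORA74A, had 21.4 and 21.8 CPM in shControl and 34.6 and 35.5 CPM in shYEATS2, a log2 fold change of 0.69 (SE 0.09, adjusted p = 4.7e-10). In SNHG7, the host of the SNORA17 group, the level was 28.0 and 29.1 CPM in shControl and 43.6 and 40.4 CPM in shYEATS2, a log2 fold change of 0.57 (SE 0.08, adjusted p = 2.4e-08). SNHG3, which holds SNORA73A and SNORA73B, had 42.9 and 42.5 CPM in shControl and 60.0 and 65.2 CPM in shYEATS2, a log2 fold change of 0.54 (SE 0.07, adjusted p = 4.4e-09). For each of these genes the lower shYEATS2 library was above the higher shControl library by more than either group's own range. EPB41L4A-AS1 (chromosome 5 from 112160526 to 112164818, plus strand) hosts SNORA13. Its level was 20.8 and 20.2 CPM in shControl and 27.8 and 32.3 CPM in shYEATS2, a log2 fold change of 0.53 (SE 0.09, adjusted p = 1.7e-06). SNHG8, the host of SNORA24, had 62.6 and 50.5 CPM in shControl and 76.9 and 83.2 CPM in shYEATS2, a log2 fold change of 0.49 (SE 0.08, adjusted p = 3.7e-06). The shControl libraries of SNHG8 were well apart from each other, and without shYEATS2 replicate 2 the log2 fold change was 0.43 (adjusted p = 0.39).

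Other H/ACA hosts did not pass the test. SNHG15, which holds SNORA9, had 27.8 and 27.4 CPM in shControl and 31.3 and 30.7 CPM in shYEATS2, with no overlap between the groups. Its log2 fold change of 0.17 had a 95% interval up to 0.34 and an adjusted p of 0.0974. DANCR, the host of SNORA26, is known as a lncRNA that holds back the differentiation of epidermal progenitors. It had 57.1 and 56.9 CPM in shControl and 62.2 and 62.9 CPM in shYEATS2, a log2 fold change of 0.13 (95% interval −0.01 to 0.27, adjusted p = 0.121). SNHG17 had 22.1 and 19.5 CPM in shControl and 20.9 and 22.1 CPM in shYEATS2, a log2 fold change of 0.04 (95% interval −0.16 to 0.23, adjusted p = 0.796). This interval leaves out a rise as large as the median of 0.55 among the genes that were called higher. SNHG11, a neighbour of SNHG17 on chromosome 20 that holds SNORA60 and SNORA71E, had 8.18 and 7.94 CPM in shControl and 8.61 and 7.21 CPM in shYEATS2, with a 95% interval of the log2 fold change from −0.27 to 0.27 (adjusted p = 0.999). SNHG9, the host of SNORA78, had 15.3 and 8.55 CPM in shControl and 9.55 and 9.67 CPM in shYEATS2. The shControl libraries of SNHG9 disagreed with each other, and its log2 fold change was −0.33 with all libraries (adjusted p = 0.619), 0.16 without shControl replicate 1 (adjusted p = 0.516) and −0.68 without shControl replicate 2 (adjusted p = 1.2e-04).

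The hosts of scaRNAs were expressed at lower levels. SNHG20, which holds SCARNA16, had 5.20 and 5.77 CPM in shControl and 9.63 and 7.38 CPM in shYEATS2, a log2 fold change of 0.67 (SE 0.15, adjusted p = 1.2e-04). SNHG10, which holds SCARNA13, had 3.11 and 2.51 CPM in shControl and 4.42 and 3.56 CPM in shYEATS2, a log2 fold change of 0.53 (SE 0.21, adjusted p = 0.0295). These calls were less firm. Without shYEATS2 replicate 1, SNHG20 was at 0.42 (adjusted p = 0.0915) and SNHG10 at 0.32 (adjusted p = 0.425), and without shControl replicate 2 SNHG10 was at 0.39 (adjusted p = 0.207). SNHG21, which holds SCARNA15 and had at most 27 counts in a library, had an interval from −0.92 to 1.10. SNHG14, a very long box C/D host of the imprinted region on chromosome 15 with at most 20 counts, had one from −1.26 to 1.52, so for both genes even a large change of either sign was not detectable at this depth. By class, 8 of 12 tested hosts of box C/D snoRNAs alone were higher (22.6% of all genes tested) and 1, SNHG18, was lower (23.6% of all), 5 of 11 tested hosts of H/ACA snoRNAs alone were higher and 1, TPT1, was lower, and 2 of 3 hosts of scaRNAs were higher. GAS5, which rose, was left out of these classes because no counted snoRNA gene lies within it, and SNHG12 was left out because it hosts both kinds. The difference between the classes was not tested.

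**Figure D2:**
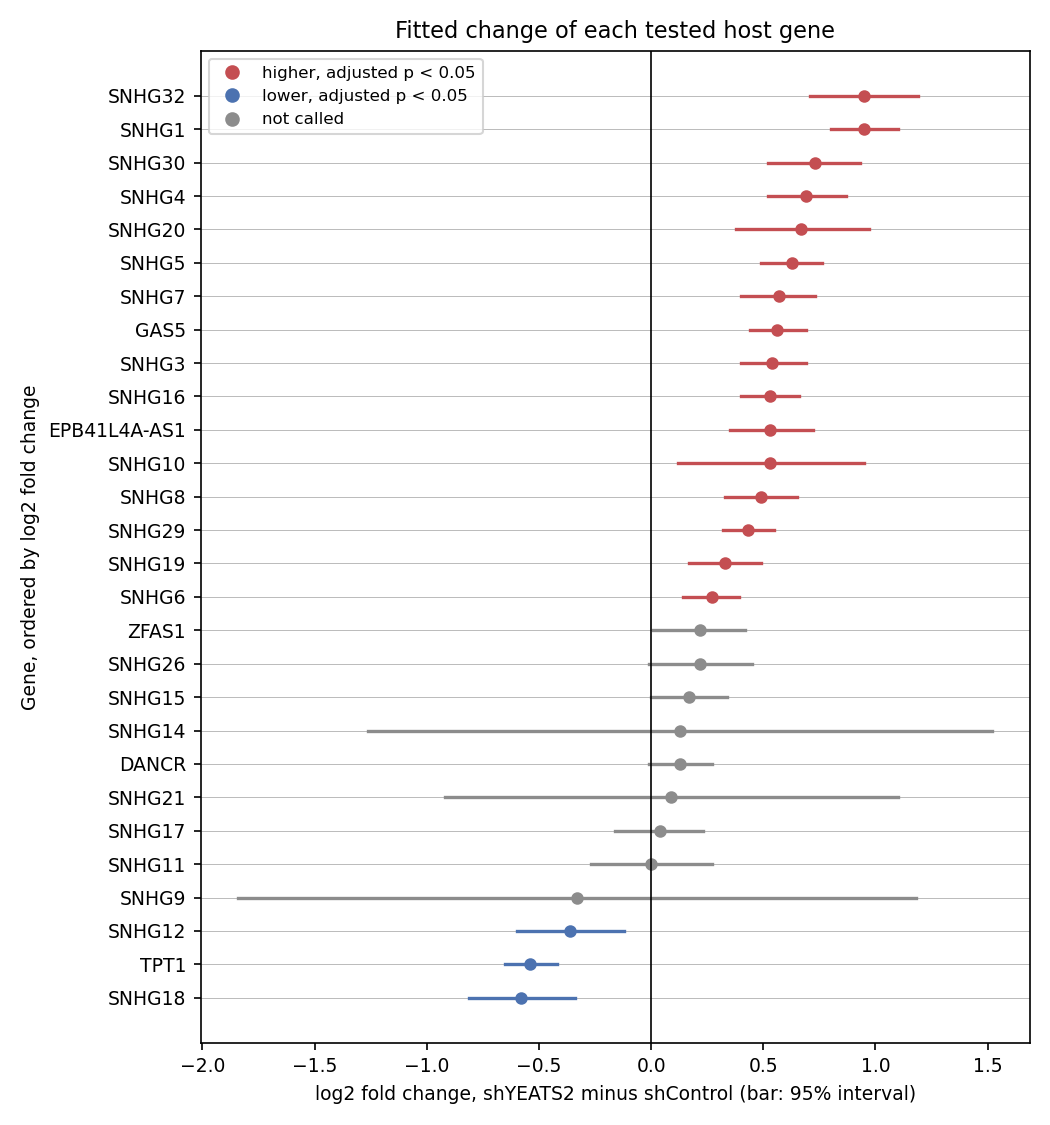
Fitted log2 fold change (shYEATS2 minus shControl) of each tested gene with its 95% interval, colored by the call. The intervals of the 16 genes called higher lie above 0, and those of SNHG12, TPT1 and SNHG18 lie below it.

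A total of 3 genes fell. TPT1 (ENSG00000133112, chromosome 13, 45333471 to 45341284, minus strand) had 839 and 859.6 CPM in shControl and 559 and 612 CPM in shYEATS2, a log2 fold change of −0.54 (SE 0.06, adjusted p = 5.2e-12). The groups were far apart compared with their own ranges, and the value stayed between −0.61 and −0.40 under every alternative tried. TPT1 has processed pseudogenes, so some of its reads can align to more than 1 place and be left uncounted. SNHG18, the host of SNORD123 on chromosome 5, had 15.2 and 14.6 CPM in shControl and 11.0 and 8.40 CPM in shYEATS2, a log2 fold change of −0.58 (SE 0.12, adjusted p = 4.3e-05). SNHG12, which hosts both box C/D and H/ACA snoRNAs (SNORD99 and SNORA44 among them), had 13.0 and 12.1 CPM in shControl and 9.32 and 10.5 CPM in shYEATS2, a log2 fold change of −0.36 (SE 0.12, adjusted p = 0.0107). The call of SNHG12 was lost without shControl replicate 1 (−0.31, adjusted p = 0.137), without shYEATS2 replicate 1 (−0.27, adjusted p = 0.145) and with DESeq2 (adjusted p = 0.111, where 17.3% of all genes were called lower).

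The 5 genes that were not tested were close to silent. SNHG28 had no count in any library. SNHG22, SNHG25, SNHG27 and SNHG31 had at most 12 counts in a library. Their levels do not allow a comparison.

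Per kilobase of annotated exon, TPT1 stood first in shControl with 118 ± 2.02 RPKM (SD, n = 2), followed by SNHG19 with 60.5 ± 3.90, SNHG6 with 45.4 ± 2.14 and SNHG29 with 35.6 ± 0.768 RPKM. GAS5 (19.7 ± 1.44), SNHG9 (19.4 ± 7.79) and SNHG16 (17.4 ± 0.649) came next, and SNHG9 could not be ordered against its neighbours within its spread. In shYEATS2, TPT1 fell to 81.6 ± 5.20 RPKM while SNHG19 stood at 75.4 ± 7.18 RPKM, a smaller gap than in shControl. The lengths are unions over all annotated transcripts, 91 for GAS5 and 2 for SNHG19, and they overstate the length of the spliced RNA more for genes with many transcripts.

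The snoRNAs themselves had few counts. Among the genes of the count files, GENCODE release 44 places 147 snoRNA and scaRNA genes inside these hosts on the same strand, 84 of them in SNHG14. Of the 147, 135 had no count in any library, and all of them together had 122 and 85 counts in shControl and 59 and 30 in shYEATS2. The 4 with enough counts for a test, SNORA73B, SNORD93, SNORA71B and SNORD104, were not called (smallest adjusted p = 0.0799, for SNORD93). Of the 147, 88 overlap an annotated exon of their host, where HTSeq by default gives a read to neither gene, and 85 of these had no count. Of the 59 outside host exons, 50 had no count. The libraries were made from poly(A) RNA, and mature snoRNAs carry no poly(A) tail, so the amount of snoRNA was not measured. For 6 tested hosts (SNHG1, EPB41L4A-AS1, SNHG8, SNHG19, SNHG15 and SNHG9) the annotated exons together cover the whole gene, so reads of unspliced RNA count toward the host there and spliced and unspliced RNA cannot be told apart.

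The genomic neighbours of the hosts were compared next, because a promoter or an exon can be shared. The strand setting of the counting is not given in the sources used here, so reads of an antisense pair may not have been told apart. Among the tested hosts, 7 had a gene on the opposite strand that was itself expressed and whose start lay within 1000 bases. In 6 of these pairs the log2 fold changes had the same sign, called or not, while 8394 of all 17058 genes tested were above 0. Both genes were called in the same direction for SNHG1 and SLC3A2, for GAS5 and ZBTB37, and for SNHG18 and SEMA5A. SLC3A2, the heavy chain of amino acid transporters, starts 51 bases from SNHG1 and had 326 and 333 CPM in shControl and 455 and 436 CPM in shYEATS2, a log2 fold change of 0.43 (SE 0.06, adjusted p = 3.3e-09). SNHG1 rose further than its neighbour, and the ratio of SNHG1 to SLC3A2 went from 0.109 and 0.116 in shControl to 0.154 and 0.17 in shYEATS2. ZBTB37, a zinc finger gene next to GAS5, rose by 0.32 on the log2 scale (SE 0.10, adjusted p = 0.00791), and the ratio of GAS5 to ZBTB37 overlapped between the groups, with 6.92 and 5.84 in shControl and 8.06 and 6.87 in shYEATS2. SEMA5A, a semaphorin gene that starts 95 bases from SNHG18, fell from 42.8 and 45.6 CPM to 18.3 and 16 CPM, a log2 fold change of −1.35 (SE 0.09, adjusted p = 1.0e-20). SNHG18 fell less, so its ratio to SEMA5A was 0.354 and 0.32 in shControl and 0.6 and 0.527 in shYEATS2. RPS2, the ribosomal protein gene next to SNHG9, had a log2 fold change of −0.52 (SE 0.06, adjusted p = 2.6e-11), while SNHG9 was not called. TPT1-AS1, a lncRNA on the opposite strand that starts 61 bases from TPT1, had 7.28 and 7.75 CPM in shControl and 7.42 and 8.40 CPM in shYEATS2. The log2 fold change of TPT1-AS1 was 0.06 (SE 0.14, adjusted p = 0.779), and the ratio of TPT1 to it was 115 and 111 in shControl and 75.4 and 72.9 in shYEATS2. AL138963.4, another opposite-strand lncRNA that overlaps TPT1, fell with it, from 11.8 and 10.2 CPM in shControl to 5.53 and 8.74 CPM in shYEATS2, a log2 fold change of −0.70 (SE 0.15, adjusted p = 1.3e-04). TRAF7 beside SNHG19 (0.12, adjusted p = 0.127) and ZNFX1 beside ZFAS1 (0.11, adjusted p = 0.17) were not called.

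Overlapping genes were compared in the same way. Exon bases shared with another counted gene on either strand were common, in 27 of the 28 tested hosts. On the opposite strand the share was largest for SNHG6 (58.9%), and SNHG32 shared 29.1% on its own strand. EPB41L4A, a gene of a cytoskeletal adaptor whose exons cover 51.2% of the exon bases of EPB41L4A-AS1 on the opposite strand, had 6.06 and 6.83 CPM in shControl and 0.671 and 0.509 CPM in shYEATS2. Its log2 fold change was −3.37 (SE 0.26, adjusted p = 4.2e-18), opposite to the rise of the antisense gene, and the ratio of EPB41L4A-AS1 to EPB41L4A was 3.43 and 2.97 in shControl and 41.5 and 63.5 in shYEATS2. RCC1, the exchange factor of the GTPase Ran, shares its strand and the region of its start with SNHG3 and rose by 0.21 (SE 0.07, adjusted p = 0.00772), less than SNHG3. The ratio of SNHG3 to RCC1 was 0.468 and 0.477 in shControl and 0.547 and 0.668 in shYEATS2. SNHG8 and PRSS12, a serine protease gene whose exons cover 37.6% of its exon bases on the opposite strand, rose together, with 0.56 for PRSS12 (SE 0.12, adjusted p = 7.6e-05).

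**Figure D3:**
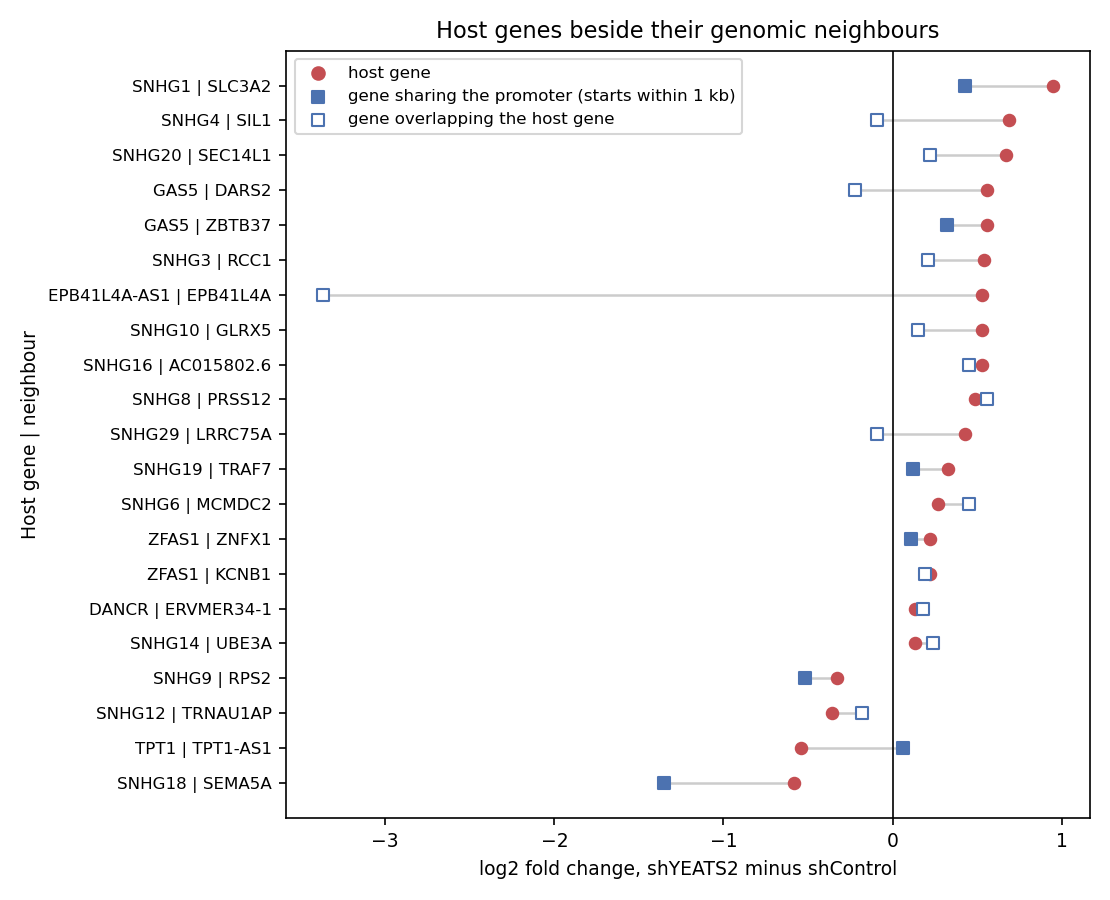
Log2 fold change (shYEATS2 minus shControl) of tested host genes (red circle) and of a neighbour of each (blue square, filled where the starts lie within 1000 bases on opposite strands and open where the genes overlap), joined by a line. SNHG18 and SEMA5A lie together below 0 (−0.58 and −1.35), SNHG1 and SLC3A2 together above it (0.95 and 0.43), and EPB41L4A-AS1 (0.53) lies opposite to EPB41L4A (−3.37).

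The other TOP transcripts did not follow the noncoding hosts. Of 82 tested ribosomal protein genes, 69 (84.1%) were lower and 2 (2.44%) were higher, with a median log2 fold change of −0.48. Their summed level was 54234 and 50189 CPM in shControl and 38243 and 38410.0 CPM in shYEATS2, so the libraries of each group lay on their own side, as they did in the opposite direction for the sum of the noncoding hosts. RPLP1, a protein of the ribosomal stalk, had 953 and 831 CPM in shControl and 544 and 458 CPM in shYEATS2, a log2 fold change of −0.83 (SE 0.08, adjusted p = 1.8e-08). RPS14 had 519 and 468 CPM in shControl and 294 and 269.9 CPM in shYEATS2, a log2 fold change of −0.81 (SE 0.06, adjusted p = 6.4e-18). The 2 that rose were RPL22L1, a paralog of RPL22, at 0.49 (adjusted p = 9.2e-06) and RPL30 at 0.18 (adjusted p = 0.00593). TPT1, at −0.54, lay near the median of the ribosomal protein genes. Many ribosomal protein genes have processed pseudogenes, so their counts are uncertain in the same way as those of TPT1.

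Of 21 tested TOP mRNAs outside the ribosomal protein list, mostly translation factors, 11 were lower (52.4%, against 23.6% of all genes) and 6 were higher (28.6%, against 22.6%), with a median of −0.15. The lower ones included EIF3K, a subunit of the initiation factor eIF3, at −0.47 (adjusted p = 7.2e-10) and FAU, which encodes a ribosomal protein fused to a ubiquitin-like protein, at −0.47 (adjusted p = 4.1e-09). The higher ones included PABPC1, the cytoplasmic poly(A) binding protein, at 0.37 (adjusted p = 1.9e-07) and EIF3H at 0.33 (adjusted p = 2.9e-06). Protein-coding hosts of snoRNAs outside the ribosomal proteins had 6 of 19 higher and 6 lower (31.6% each, against 22.6% and 23.6% of all genes) and a median of −0.10, a split not far from that of all genes. EEF2, the translocase of elongation, was at −0.42 (SE 0.06, adjusted p = 1.5e-08). WDR43, a ribosome assembly factor, had 54.0 and 54.4 CPM in shControl and 104 and 106 CPM in shYEATS2, a log2 fold change of 0.95 (SE 0.07, adjusted p = 9.6e-20). HSPA8, the constitutive HSP70 chaperone, had 917 and 934 CPM in shControl and 513 and 511 CPM in shYEATS2, a log2 fold change of −0.85 (SE 0.06, adjusted p = 1.4e-20). The companion lists overlap, so some genes were counted more than once. Among these hosts, EEF2 is also on the list of TOP mRNAs and DKC1 on that of proteins that bind or assemble snoRNAs.

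**Figure D4:**
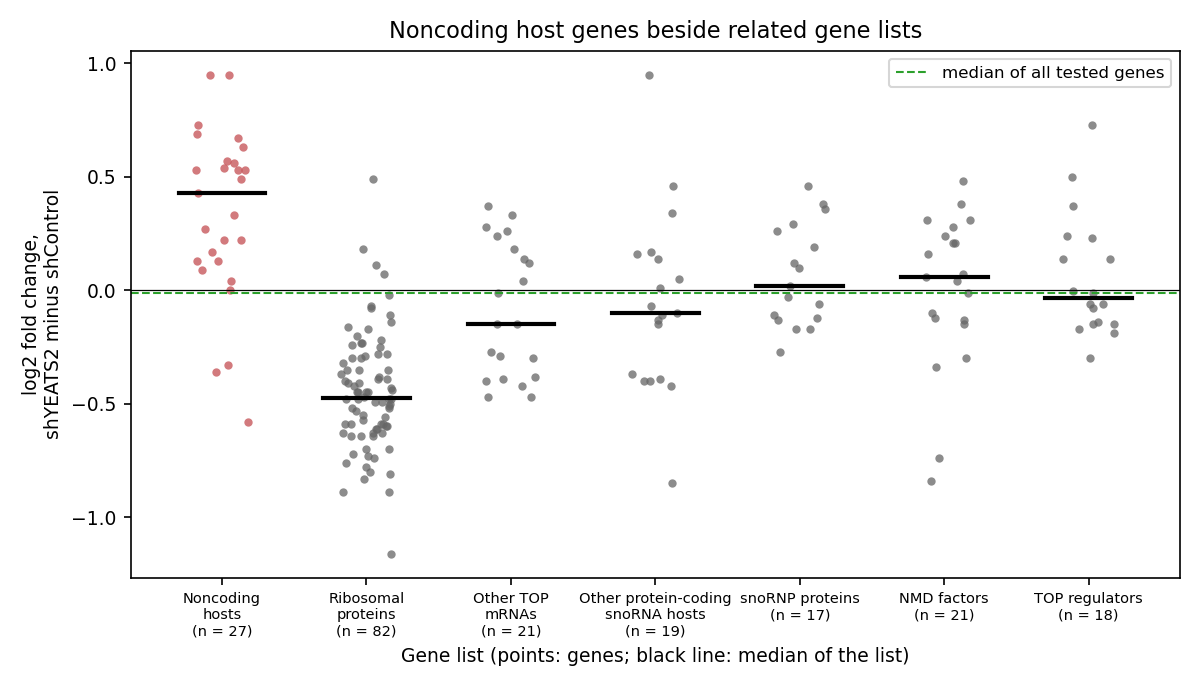
Log2 fold changes (shYEATS2 minus shControl) of the tested genes of each list, 1 point per gene, with the median of each list marked. The noncoding hosts center on 0.43, the ribosomal protein genes on −0.48, and the other lists within 0.2 of 0.

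The machinery around these RNAs changed in both directions. Of 17 proteins that bind or assemble snoRNAs, 6 were higher (35.3%, against 22.6% of all genes) and 1 was lower (5.88%, against 23.6%), with a median of 0.02. DKC1, the pseudouridine synthase of the H/ACA particle, was at 0.46 (SE 0.06, adjusted p = 1.4e-09) and GAR1 of the same particle at 0.38 (SE 0.08, adjusted p = 1.1e-04). NOP10 of that particle was at −0.17 (SE 0.07, adjusted p = 0.0237), a call that was lost with DESeq2 (adjusted p = 0.0716). Of 21 NMD factors, 9 were higher (42.9%, against 22.6% of all genes) and 4 were lower (19.0%, against 23.6%), with a median of 0.06. RBM8A, a core protein of the exon junction complex, had 137 and 141 CPM in shControl and 75.1 and 80.8 CPM in shYEATS2, a log2 fold change of −0.84 (SE 0.07, adjusted p = 1.2e-17). XRN1, the cytoplasmic exonuclease that degrades decapped RNA, had 74.5 and 78.4 CPM in shControl and 44 and 47.9 CPM in shYEATS2, a log2 fold change of −0.74 (SE 0.07, adjusted p = 1.1e-13). MAGOHB, a paralog of the partner of RBM8A, was at 0.48 (adjusted p = 3.7e-06) and SMG9, a regulator of the SMG1 kinase, at 0.38 (adjusted p = 1.0e-05). Of 18 regulators of TOP translation, 6 were higher (33.3%) and 3 were lower (16.7%), shares near those of all genes, with a median of −0.03. LARP1B, a paralog of LARP1, was at 0.73 (adjusted p = 6.3e-10) and the translational repressor EIF4EBP1 at 0.50 (adjusted p = 4.2e-08), while TIA1, which binds TOP mRNAs under stress, was at −0.30 (adjusted p = 0.00115) and the RNA-binding protein HNRNPD at −0.19 (adjusted p = 0.00604). Decay and translation of the host RNAs were not measured.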

How the data were processed

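The authors made 4 poly(A)-selected, stranded libraries, mapped their paired reads on GRCh38 (STAR), tallied them per gene (HTSeq) and deposited these whole-number counts with no scaling. Which annotation release, STAR version and strand option they used is not given in the sources used here. Reads of no gene (7.64 to 8.57%), of more than 1 gene (4.31 to 4.61%) or with more than 1 alignment (3.25 to 3.53%) were left out of the totals. The totals give the precision of each value, and the shallowest library had 11334133 counts.

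Genes were kept by edgeR's filterByExpr (17058), scaled with TMM and tested on all 4 libraries with the quasi-likelihood test of edgeR 4.0.16 in R 4.3.3, with Benjamini-Hochberg adjustment over all genes tested. A gene was called at an adjusted p under 0.05. The procedure was tested on simulated data. Positions, types and exon lengths came from GENCODE release 44, and start sequences from RefSeq (GRCh38.p14). The gene set, the companion lists and the tests were chosen with earlier results of these data known. Every gene of the set was described. One neighbouring gene is not reported here. From each companion list were named the 2 largest rises and 2 largest falls among called genes, where the mean reached 10 CPM and the groups did not overlap. Results were computed again with size factors of DESeq2 1.42.0, its test, library totals, 2 other filters, limma-voom (limma 3.58.1), a replicate block, thinned counts and each library left out in turn.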

Additional observations from a re-analysis of the deposited data

How the results depend on the processing

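Scaling by library totals alone, in place of TMM, shifted the median of all genes on the log2 scale from −0.009 to 0.125 and the calls from 3857 higher and 4019 lower to 5441 higher and 2567 lower. Under that scaling 20 host genes were higher (31.9% of all genes) and 2 were lower (15.0% of all genes). The added calls were DANCR (0.27, adjusted p = 0.00168), SNHG15 (0.31, adjusted p = 0.00324), SNHG26 (0.36, adjusted p = 0.0137) and ZFAS1 (0.35, adjusted p = 0.0114), and SNHG12 was no longer called (−0.23, adjusted p = 0.119). Over the alternatives that kept all 4 libraries, 15 to 20 host genes were higher (9.23 to 31.9% of all genes) and 2 to 4 were lower (13.0 to 26.7% of all genes). No host gene was called in the opposite direction under them. Leaving out 1 library at a time gave 13 to 17 higher and 2 to 4 lower, with the lone library of a group assumed to vary like the other group. The same 11 genes were called higher under all 12 alternatives, namely EPB41L4A-AS1, GAS5, SNHG1, SNHG3, SNHG4, SNHG5, SNHG7, SNHG16, SNHG29, SNHG30 and SNHG32. The share of all genes called higher under all 12 was not computed, so these 11 have no background beside them. SNHG10 was not called with DESeq2 (adjusted p = 0.181) or without a filter on low counts (adjusted p = 0.0801), and SNHG12 was not called with thinned counts (adjusted p = 0.0671).

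The correlation of the deviations of same-numbered libraries was 0.0544 over 9365 genes. With only 2 pairs, it cannot decide whether the library numbers pair the samples. With a replicate block, 16 host genes were higher (22.7% of all genes) and 4 lower (24.3% of all), SNHG9 being added (−0.34, adjusted p = 0.0248), 2 of the proteins that bind snoRNAs were lower and 6 of the regulators of TOP translation were lower.

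Values near 0 changed sign. SNHG11 was at −0.05 without a filter, −1.5e-04 with at least 10 counts in every library, −4.9e-03 with DESeq2, −0.01 with the replicate block, −0.02 with thinned counts, and −0.18 to 0.09 with 1 library left out. SNHG17 was at −0.01 without a filter and −0.06 to 0.13 with 1 library left out. With 1 library left out, SNHG9 was at −0.68 to 0.16, SNHG21 at −0.12 to 0.38, and SNHG14 at −0.56 (without shControl replicate 2) to 0.31, with no value without shControl replicate 1, where its counts were too low for the test. Small counts of companion genes also moved, and the cause was not tested. Proteins that bind snoRNAs were lower in 0 cases with library totals, DESeq2 or thinned counts, 2 with at least 10 counts in every library, 3 without a filter, and 0 to 4 with 1 library left out (0 without either shControl library, 3 without shYEATS2 replicate 1 and 4 without shYEATS2 replicate 2). Protein-coding snoRNA hosts were higher in 3 cases without a filter and 3 to 6 with 1 library left out, and NMD factors in 5 and 5 to 9, both lowest without shControl replicate 1. Regulators of TOP translation were lower in 0 cases with library totals, 6 without a filter and 1 to 5 with 1 library left out (1 without either shControl library and 5 without shYEATS2 replicate 2). Ribosomal protein genes were higher in 1 case without a filter and 1 to 2 with 1 library left out (1 without either shControl library).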
